A study of Mus musculus with 18 samples.

Results

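Matrix metalloproteinases (MMPs), proteases of the ADAMTS family and the tissue inhibitors of metalloproteinases (TIMPs) were followed in mouse skin flaps collected at day 7. The set was defined by gene symbol alone: every Mmp gene with a number, every Adamts gene with a number, and Timp1 to Timp4. It holds 44 of the 27743 genes measured, of which 21 are Mmp, 19 Adamts and 4 Timp genes. The flaps of 5 groups, labelled D15L100, D15L150, D15L200, D100L150 and D150L150, lay over a printed mesh-like spacer. The spacers differed in diameter and spacing and were made by near-field electrostatic printing. Flaps of the Control group got no treatment once the flap model was made, per the labels. Each group had 3 RNA-seq libraries. The labels give no unit or meaning for D and L, and no strain, age or sex. They also do not say whether libraries came from separate animals, so a p-value here reflects how far these libraries scatter, part of which may be technical. Libraries held 28422344 to 35327357 fragments counted in genes, recovered from the steps of the deposited FPKM values (fragments per kilobase of gene, normalised to library size). Markers of keratinocytes, fibroblasts and macrophages were above 0 in all 18 libraries and the hepatocyte markers summed to at most 1.28 FPKM. Skeletal muscle markers summed to 1737 to 15831 FPKM, so muscle transcripts were also present.

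MMPs are zinc-dependent proteases that together can cleave most proteins of the extracellular matrix. They are made as inactive precursors, which other proteases activate, and TIMPs block the active enzymes. ADAMTS proteases are secreted relatives with narrower substrates. Some cleave large proteoglycans such as versican and aggrecan, others trim the ends of procollagens so that fibrils can form, and others act on cartilage oligomeric matrix protein or on microfibrils. In healing skin, several collagenases and stromelysins are known to be switched on in keratinocytes at the wound edge, fibroblasts and infiltrating leukocytes. Many of these genes respond to the transcription factor AP-1, a dimer of Fos and Jun proteins.

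Of the 21 Mmp genes, 9 lie side by side on chromosome 9, between 7272514 and 7699585 in GRCm38.p6: Mmp13, Mmp12, Mmp1b, Mmp3, Mmp1a, Mmp10, Mmp8, Mmp27 and Mmp7. The genes with the widest differences between the L150 spacer groups are from this row, together with Mmp9 on chromosome 2. The 120 bases before the annotated start are shown for 5 genes of the row, to show where the AP-1 letters lie. Of these, Mmp13, Mmp10 and Mmp8 lay above D15L150 without overlap in both D100L150 and D150L150, against 3.6% of all tested genes. Mmp3 did so in D150L150 only and Mmp1b in D100L150 only. The shares of all tested genes above D15L150 were 8.2% in D150L150 and 9.57% in D100L150, each group taken alone. Sequences are from RefSeq (GRCm38.p6), written 5′ to 3′ on the strand of the gene, and capitals mark TGAGTCA or its reverse complement TGACTCA.
Mmp13 (chr9:7272394-7272513, plus strand): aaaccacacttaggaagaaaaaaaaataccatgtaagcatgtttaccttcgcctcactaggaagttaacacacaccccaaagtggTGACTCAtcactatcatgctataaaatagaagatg
Mmp3 (chr9:7445702-7445821, plus strand): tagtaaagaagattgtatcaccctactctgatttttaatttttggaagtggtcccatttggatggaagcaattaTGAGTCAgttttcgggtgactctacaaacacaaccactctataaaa
Mmp10 (chr9:7502222-7502341, plus strand): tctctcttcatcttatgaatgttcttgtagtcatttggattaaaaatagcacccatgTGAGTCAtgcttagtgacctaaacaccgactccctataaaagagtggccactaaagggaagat
Mmp1b (chr9:7388027-7388146, minus strand): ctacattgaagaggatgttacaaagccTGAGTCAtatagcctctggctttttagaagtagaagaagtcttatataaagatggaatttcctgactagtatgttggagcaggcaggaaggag
Mmp8 (chr9:7558309-7558428, plus strand): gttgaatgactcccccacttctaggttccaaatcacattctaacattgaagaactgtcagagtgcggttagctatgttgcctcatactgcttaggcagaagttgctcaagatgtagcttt
The first base of the motif lay 35 bases before the start in Mmp13, 46 in Mmp3, 63 in Mmp10 and 93 in Mmp1b, while the Mmp8 window held none. RefSeq windows of 300 bases, with 250 before the start and 50 after it, were matched for 30 of the 44 genes, and Mmp2 and Mmp9 were not among them. The motif, searched as TGAGTCA on both strands, was in a window of 7 of the 9 genes of the chromosome 9 row, with Mmp8 and Mmp27 the exceptions. Mmp12 and Mmp7 had a pair of windows each, of which 1 held the motif. None of the other 21 matched genes had it, and it was in 5.2% of all 32851 promoter windows. A match of letters is a description of the sequence and no sign that a factor binds there.

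Mmp14, Mmp2, Mmp3, Timp1 and Timp2 were the most abundant transcripts of the set, and 21 of the 44 genes reached 10 FPKM in some library. Mmp14 encodes a membrane-anchored collagenase that activates the Mmp2 precursor, and Mmp2 encodes a gelatinase made mainly by stromal cells. Mmp14, Mmp2 and Mmp3 together made up 49.3 to 83.0% of the summed FPKM of all Mmp genes. Among Adamts genes, Adamts2 had the highest mean level, followed by Adamts1 and Adamts4, and all 19 summed to 108 to 156 FPKM per library. Genes were tested where 3 or more libraries reached 1 FPKM, and 17 Mmp, 10 Adamts and 3 Timp genes met this, 30 in all. The 14 below it were Mmp1a, Mmp7, Mmp16, Mmp24, Adamts3, Adamts6, Adamts8, Adamts13, Adamts16, Adamts17, Adamts18, Adamts19, Adamts20 and Timp4, and none of them exceeded 0.958 FPKM in any library. Mmp1b, Mmp25 and Adamts7 passed with levels near the limit, at 0.0730 to 4.62 FPKM, 0.432 to 1.89 FPKM and 0.613 to 6.10 FPKM.

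**Figure D1:**
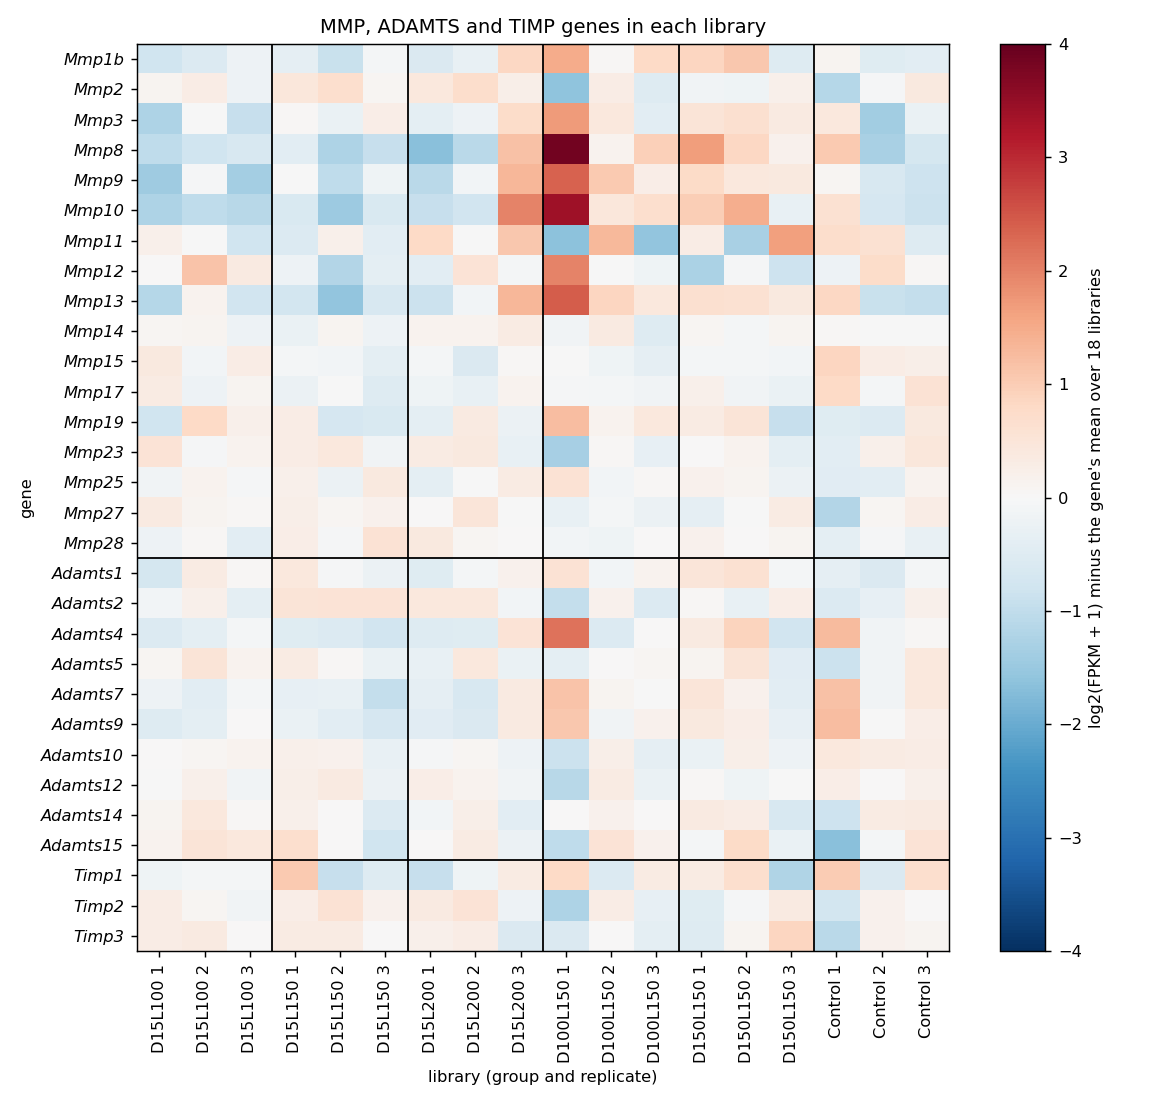
Heat map of the 30 tested MMP, ADAMTS and TIMP genes (rows) in the 18 libraries (columns, by group), coloured by log2(FPKM + 1) minus the mean of the gene over all libraries. Library D100L150 1 carries the deepest red for Mmp8, Mmp9, Mmp10 and Mmp13 and blue for Mmp2, Adamts2 and Timp2, and Control 1 is red for Adamts7 and Adamts9 and blue for Adamts15 and Timp3.

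The genes of the set varied more between libraries of 1 group than most genes did. Their within-group SD had a median of 0.48 on the log2(FPKM + 1) scale, against 0.21 over all 13078 tested genes, and 29 of the 30 lay above that median. The widest was Mmp8, the neutrophil collagenase, at 1.17, followed by Mmp10 at 1.09 and Mmp11 at 1.01. Mmp28 had the narrowest spread at 0.20, and Mmp14 followed at 0.22. A pair of libraries accounted for many of the extremes. D100L150 1 was the highest library for 10 of the 30 genes, Mmp1b, Mmp3, Mmp8, Mmp9, Mmp10, Mmp12, Mmp13, Mmp19, Mmp25 and Adamts4, against 13.9% of all tested genes. It was also the lowest for 7, Mmp2, Mmp11, Mmp23, Adamts2, Adamts10, Adamts12 and Timp2, against 24.0% of all tested genes. Control 1 was the highest library for Mmp15, Mmp17, Adamts7, Adamts9 and Adamts10, against 19.5% of all tested genes. It was the lowest for 6 genes, Mmp25, Mmp27, Adamts5, Adamts14, Adamts15 and Timp3, against 17.1%. Cell type markers moved in the same libraries. The 6 neutrophil markers were S100a8, S100a9, Cxcr2, Csf3r, Retnlg and Ly6g. They summed to 9572 FPKM in D100L150 1, 8300 in D15L200 3, 5226 in D150L150 1 and 5991 in Control 1, against 807 to 3256 in the other 14. The 8 fibroblast markers were Pdgfra, Col1a1, Col1a2, Dpt, Dcn, Lum, Pdgfrb and Fap. Their sum was lowest in the same D100L150 and Control libraries, at 1940 FPKM in D100L150 1 and 2523 in Control 1, and reached 7723 elsewhere. A sum leans to its most abundant markers. In bulk tissue, fewer cells of a type and less RNA per cell cannot be told apart.

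No MMP, ADAMTS or TIMP gene was called in any of the 14 comparisons made, at an adjusted p under 0.05 in limma's test with Benjamini-Hochberg adjustment over 13078 genes. For the mean of the 5 spacer groups over Control, 3.56% of all genes (466) were called, and for D15L200, D100L150 and D150L150 over Control 1.56%, 1.38% and 2.42%. For D15L100 and D15L150 over Control, the 6 pairs of spacer groups and the F tests over the D15 and the L150 series, 0.0% of all genes were called. Without Control 1 the 466 calls fell to 0, and those over Control to 0 for D15L200, 0 for D100L150 and 2 for D150L150. Other libraries mattered too. Over Control, D15L200 also had 0 calls without Control 2, and 0 without D15L200 1, D15L200 2 or D15L200 3. D100L150 had 0 without D100L150 1, and D150L150 had 0 without D150L150 1. For D15L150 over Control the calls ranged over 0 to 239 with single libraries left out. The same test on recovered fragments with voom also called 0 of the 30. At an unadjusted p under 0.05, the mean comparison had 4 of the 30 genes, Mmp15, Mmp17 and Adamts10 lower and Mmp28 higher, against 22.4% of all genes. The counts were 0 for D15L100, 6 for D15L150, 3 for D15L200, 8 for D100L150 and 4 for D150L150 over Control, against 3.3%, 19.8%, 17.3%, 21.1% and 20.4% of all genes. All 5 comparisons share the Control libraries. Among spacer pairs, D100L150 over D15L150 had 13 of the 30, against 11.4% of all genes. The count was 2 for D15L150 over D15L100 (4.72% of all genes), 1 for D15L200 over D15L100 (5.18%), 0 for D15L200 over D15L150 (0.734%), 1 for D150L150 over D15L150 (4.95%) and 1 for D150L150 over D100L150 (2.2%).

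The median log2 change of the 30 genes in the mean comparison was 0.24, with 18 positive and 12 negative, against a median of -0.04 over all tested genes, of which 43.4% were positive. By family the median was 0.30 for the 17 Mmp genes, -0.07 for the 10 Adamts genes and 0.22 for the 3 Timp genes. Each log2 change is a difference on the log2(FPKM + 1) scale, which shrinks the changes of low genes, and the value after ± is limma's standard error.

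**Figure D2:**
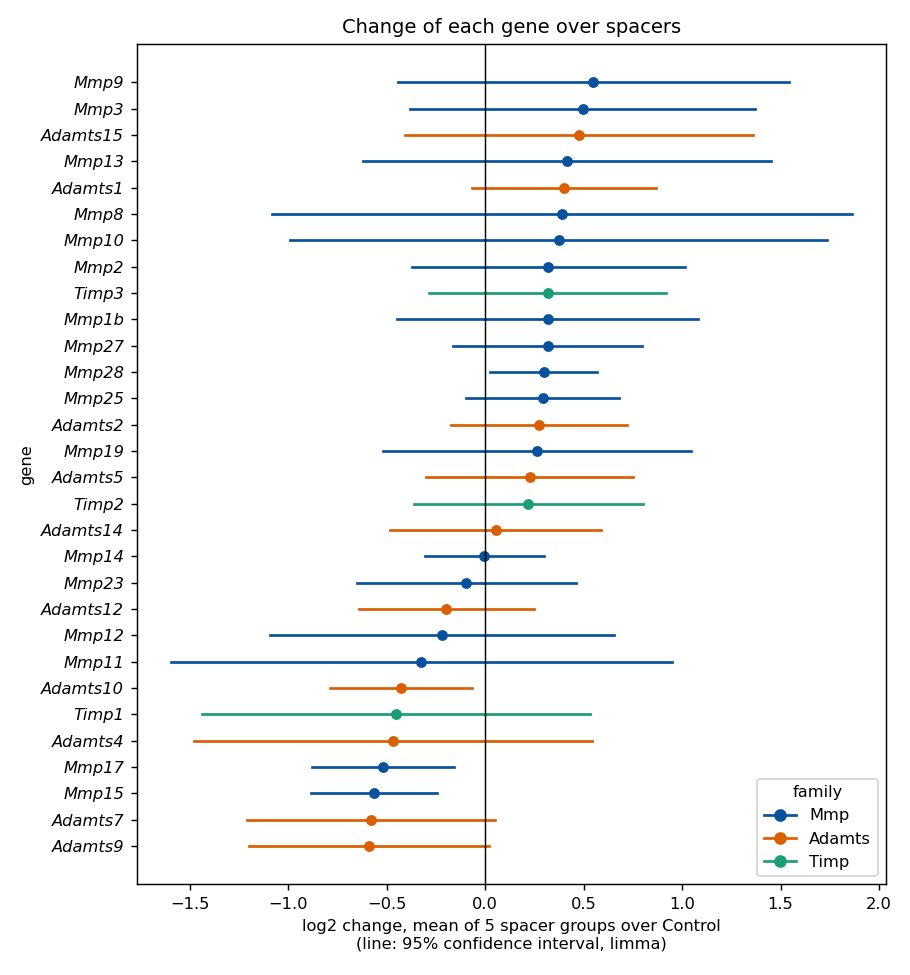
Log2 change of each of the 30 tested genes for the mean of the 5 spacer groups over Control (point, horizontal axis) with its 95% confidence interval from limma (line), coloured by family. The intervals of Mmp15, Mmp17 and Adamts10 lie below 0 and that of Mmp28 above it, and none of the 30 passed the adjusted threshold.

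No membrane-type MMP passed the test. Mmp14, the most abundant (chromosome 14, 54431598 to 54442456, GRCm38.p6), was nearly level across the groups. Its values were 202, 205 and 165 FPKM in D15L100, 160.3, 209 and 165 in D15L150, 209, 214 and 241 in D15L200, 173, 246 and 133 in D100L150, 204, 180.3 and 205 in D150L150, and 198, 188 and 191 in Control. The groups overlapped, apart from D15L200, whose 3 libraries lay above all those of D15L100, D15L150, D150L150 and Control, against 4.48%, 2.18%, 1.91% and 11.2% of all genes. The log2 change of Mmp14 over Control was -0.00 ± 0.14 (95% confidence interval -0.30 to 0.30) for the mean of the spacer groups, adjusted p = 0.994 in limma.

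Mmp15, another membrane-anchored MMP (chromosome 8, 95352296 to 95374293), was lower over spacers and came nearest to the threshold. It had 8.94, 6.10 and 8.27 FPKM in D15L100, 6.20, 6.03 and 4.81 in D15L150, 6.14, 4.08 and 6.88 in D15L200, 6.54, 5.69 and 4.97 in D100L150, 6.15, 6.20 and 6.04 in D150L150, and 12.9, 8.35 and 7.94 in Control. All libraries of D15L150, D15L200, D100L150 and D150L150 lay below all 3 Control libraries, and D15L100 overlapped them. The shares of all tested genes that did so were 14.0%, 13.8%, 10.8% and 12.1%. Over the mean of the spacer groups the log2 change was -0.56 ± 0.15 (95% confidence interval -0.88 to -0.25), adjusted p = 0.052 in limma. The highest value was that of Control 1. Without it the log2 change was -0.36 with adjusted p = 0.415, while leaving out D15L100 1 or D15L200 3 took the adjusted p to 0.0491 and 0.0448. In Control 1 the 6 endothelial markers summed to 451 FPKM, against 77.1 to 244 in the other libraries, and their part in the difference was not tested.

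Mmp17, which is held at the membrane by a lipid anchor, was also lower over spacers, at low levels. It had 2.21, 1.25 and 1.80 FPKM in D15L100, 1.18, 1.52 and 0.790 in D15L150, 1.30, 1.09 and 1.86 in D15L200, 1.5, 1.43 and 1.34 in D100L150, 1.99, 1.33 and 1.13 in D150L150, and 3.50, 1.41 and 2.83 in Control. Control 1 and Control 3 were the 2 highest of the 18 libraries, and Control 2 lay within the spacer groups. Its log2 change came to -0.52 ± 0.17, adjusted p = 0.0985 in limma. Without Control 1 it was -0.33 with adjusted p = 0.522, and without Control 2 it was -0.78 with adjusted p = 0.0319. Mmp25, a lipid-anchored MMP of leukocytes, had 0.757, 1.17 and 0.885 FPKM in D15L100, 1.22, 0.661 and 1.56 in D15L150, 0.495, 0.916 and 1.42 in D15L200, 1.89, 0.790 and 1.00 in D100L150, 1.19, 1.10 and 0.641 in D150L150, and 0.432, 0.456 and 1.14 in Control. Its groups overlapped, and its log2 change was 0.29 ± 0.18, adjusted p = 0.36. Mmp16, another membrane-type MMP, was below the limit for testing. It had 0.198, 0.290 and 0.234 FPKM in D15L100, 0.221, 0.338 and 0.245 in D15L150, 0.384, 0.298 and 0.401 in D15L200, 0.106, 0.279 and 0.176 in D100L150, 0.217, 0.198 and 0.226 in D150L150, and 0.117, 0.188 and 0.128 in Control. All libraries of D15L100, D15L150, D15L200 and D150L150 lay above the highest Control value of 0.188, against 2.1%, 12.4%, 11.2% and 14.3% of tested genes. With no filter on low values the log2 change was 0.13 ± 0.05 (adjusted p = 0.195 in limma). Mmp24 stayed at or under 0.0965 FPKM.

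Mmp28, the secreted protease epilysin, which keratinocytes make, was higher in the mean of the spacer groups than in Control, without passing the test. It had 1.76, 2.27 and 1.34 FPKM in D15L100, 2.84, 2.05 and 3.74 in D15L150, 3.14, 2.37 and 2.20 in D15L200, 1.95, 1.80 and 2.18 in D100L150, 2.59, 2.19 and 2.45 in D150L150, and 1.41, 2.05 and 1.58 in Control. The libraries of D15L150, D15L200 and D150L150 lay above the highest Control library, by little in D15L150 2, against 12.4%, 11.2% and 14.3% of all genes. Those of D15L100 and D100L150 overlapped Control, and the lowest library of the series was D15L100 3. The D150L150 libraries also lay above those of D100L150, against 4.39%. In limma the log2 change for the mean of the spacer groups was 0.30 ± 0.13, adjusted p = 0.184. With single libraries left out it ranged over 0.22 to 0.40. No other of the 30 genes had an unadjusted p under 0.05 in the F test over D15L100, D15L150 and D15L200 (limma's adjusted p = 0.993 for Mmp28), against 2.89% of all genes. In D15L150 over Control its log2 change was 0.52 ± 0.16, adjusted p = 0.12. The 6 basal keratinocyte markers summed to 3073 to 7296 FPKM in D15L150 and 1263 to 3607 in Control, and their part in the difference was not tested.

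**Figure D3:**
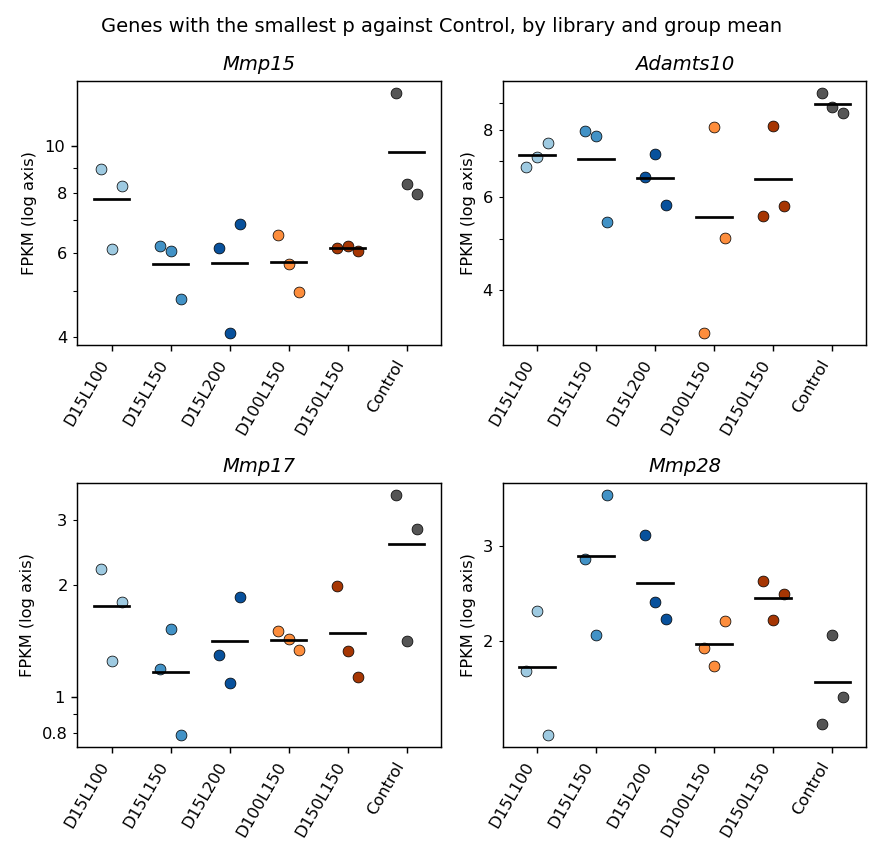
FPKM of Mmp15, Adamts10, Mmp17 and Mmp28 in each library (points, log axes) with the group mean (bars), for the 5 spacer groups and Control. Adamts10 lies below 8.64 FPKM in all 15 spacer libraries and at or above it in Control, and Control 1 is the highest library for Mmp15 at 12.9 FPKM.

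The widest differences among spacers were in collagenases, a stromelysin and gelatinase B at L150. Mmp8, Mmp9, Mmp10 and Mmp13 were higher in every library of D100L150 and D150L150 than in every library of D15L150, a pattern found for 3.6% of all tested genes. For D100L150 over D15L150 alone, 8 of the 30 genes lay above without overlap, Mmp1b, Mmp8, Mmp9, Mmp10, Mmp12, Mmp13, Adamts7 and Adamts9, against 9.57% of all genes. Below without overlap were Mmp27 and Adamts2, against 7.48%. For D150L150 over D15L150, Mmp3, Mmp8, Mmp9, Mmp10 and Mmp13 lay above, against 8.2% of all genes, and Adamts2 lay below, against 4.24%. These genes were picked out after their values were seen, and none passed the adjusted threshold.

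Mmp13, a collagenase of wounds and bone (chromosome 9, 7272514 to 7283333), carried the motif nearest to its start of the sequences shown. It had 15.7, 39.8 and 20.8 FPKM in D15L100, 20.9, 11.4 and 22.7 in D15L150, 19.4, 32.7 and 91.8 in D15L200, 194, 66.1 and 48.1 in D100L150, 56.4, 54.9 and 47.0 in D150L150, and 64.0, 18.7 and 17.8 in Control. The D100L150 and D150L150 libraries lay at 47.0 FPKM or more and those of D15L150 at 22.7 or less, and D15L200 3 and Control 1 also reached the range of D100L150 and D150L150. This gave a log2 change of 2.21 ± 0.62 (95% confidence interval 0.88 to 3.55) for D100L150 over D15L150, adjusted p = 0.412 in limma. For D150L150 over D15L150 it was 1.53 ± 0.62, with adjusted p = 0.89. Without D100L150 1 the D100L150 change was 1.63.

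Mmp8 encodes the collagenase stored in neutrophil granules. It had 3.3, 3.97 and 4.56 FPKM in D15L100, 5.53, 2.67 and 3.58 in D15L150, 1.74, 3.07 and 18.4 in D15L200, 124, 8.56 and 15.8 in D100L150, 26.6, 14.5 and 8.81 in D150L150, and 16.8, 2.53 and 4.32 in Control. D100L150 1 stood at 124 FPKM, far above the next highest library, D150L150 1 at 26.6, and the other 2 D100L150 libraries still lay above all those of D15L150. The log2 change was 2.51 ± 0.89 for D100L150 over D15L150 and 1.75 ± 0.89 for D150L150 over D15L150, with adjusted p = 0.412 and 0.89 in limma. Without D100L150 1 the D100L150 change was 1.41. The summed neutrophil markers were also higher in D100L150, at 2160 to 9572 FPKM, with 1314 to 5226 FPKM in D150L150 and 807 to 1505 FPKM in D15L150. All 6 markers were above 0 in all libraries, and none passed the test in D100L150 or D150L150 over D15L150. Their part in the difference was not tested.

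Mmp9, gelatinase B, is made by neutrophils, macrophages and migrating keratinocytes (chromosome 2, 164940326 to 164955850). It had 10.7, 29.5 and 11.4 FPKM in D15L100, 30.1, 14.6 and 26.9 in D15L150, 13.9, 28.4 and 77.2 in D15L200, 161, 63.5 and 37.0 in D100L150, 52.9, 41.1 and 40.5 in D150L150, and 32.3, 19.4 and 16.7 in Control. Its D100L150 and D150L150 libraries also lay above all Control libraries, which those of Mmp8, Mmp10 and Mmp13 did not. For the D100L150 set, 1 of the 30 genes lay above Control without overlap, against 11.0% of all genes. For the D150L150 set there were 3, Mmp9, Mmp28 and Adamts1, against 14.3%. The log2 change over Control was 1.68 ± 0.60 for D100L150 (adjusted p = 0.136) and 0.99 ± 0.60 for D150L150 (adjusted p = 0.368). Over D15L150 it was 1.62 ± 0.60 and 0.93 ± 0.60, with adjusted p = 0.412 and 0.89. Without D100L150 1 the D100L150 change over D15L150 was 1.05.

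Mmp10, a stromelysin known from the leading edge of healing epidermis, had 0.994, 1.34 and 1.18 FPKM in D15L100, 2.04, 0.706 and 2.10 in D15L150, 1.49, 1.73 and 17.6 in D15L200, 48.4, 5.46 and 6.41 in D100L150, 8.36, 11.7 and 2.80 in D150L150, and 6.10, 1.93 and 1.58 in Control. D150L150 3, at 2.80 FPKM, lay just above the highest D15L150 library at 2.10. Its log2 change came to 2.40 ± 0.82 for D100L150 over D15L150 and 1.60 ± 0.82 for D150L150 over D15L150, with adjusted p = 0.412 and 0.89. Without D100L150 1 the D100L150 change was 1.46. Its neighbour Mmp3, a stromelysin found in many cells of the dermis, had 69.2, 163 and 85.9 FPKM in D15L100, 172, 138 and 201 in D15L150, 125, 142 and 276 in D15L200, 541, 220.1 and 124 in D100L150, 235, 260.4 and 214 in D150L150, and 224, 61.7 and 137 in Control. The 3 D150L150 libraries lay just above those of D15L150, and D100L150 overlapped them. For the mean of the spacer groups over Control the log2 change of Mmp3 was 0.49 ± 0.41, adjusted p = 0.499. It was -0.0021 without Control 2. Mmp1b, 1 of a pair of rodent counterparts of the interstitial collagenase, had 0.146, 0.367 and 0.712 FPKM in D15L100, 0.551, 0.0730 and 0.868 in D15L150, 0.326, 0.626 and 2.52 in D15L200, 4.62, 1.06 and 2.45 in D100L150, 2.61, 3.2 and 0.384 in D150L150, and 1.13, 0.423 and 0.501 in Control. It overlaps Mmp12 on the other strand and resembles Mmp1a, so its reads could be shared where counting did not use strand. Mmp1a itself stayed at or under 0.361 FPKM.

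**Figure D4:**
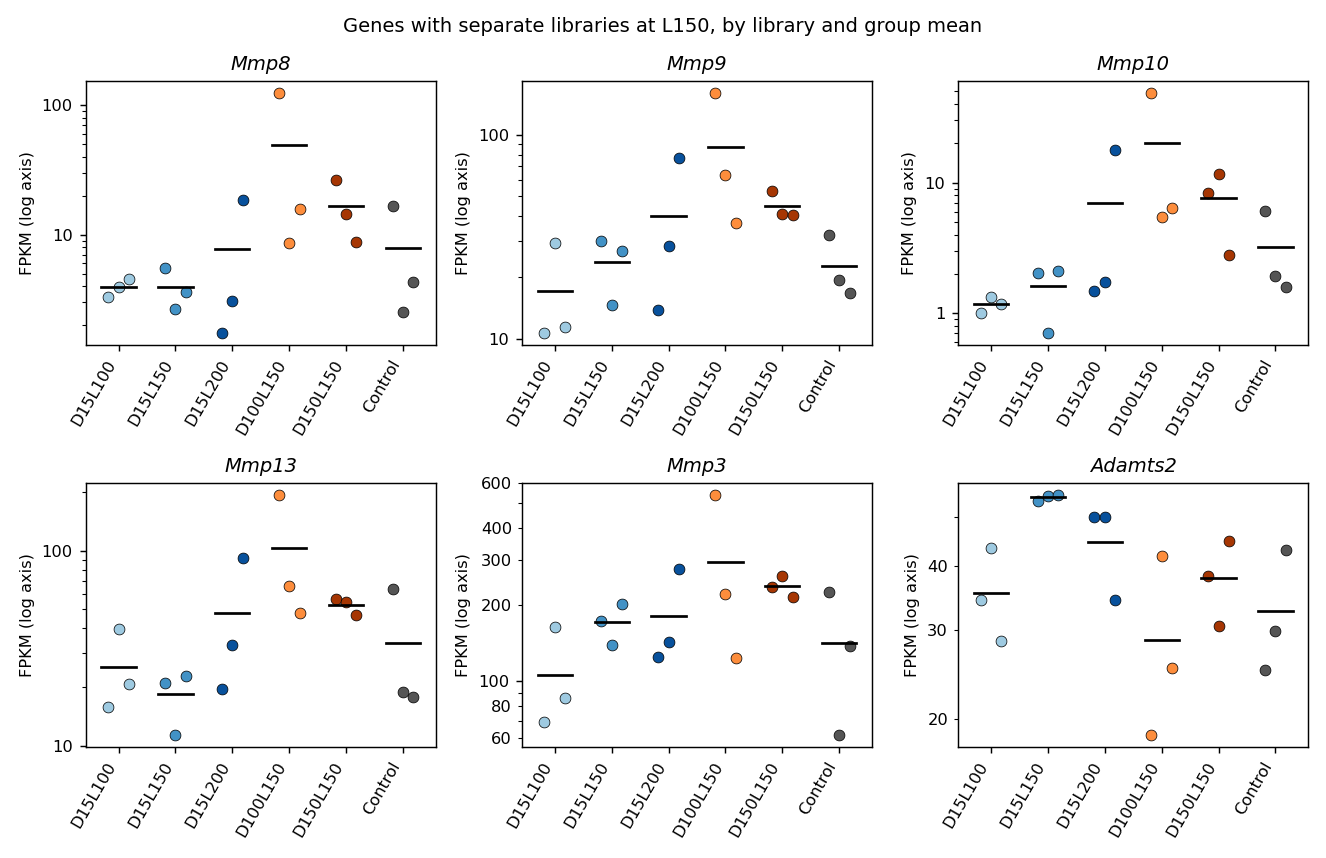
FPKM of Mmp8, Mmp9, Mmp10, Mmp13, Mmp3 and Adamts2 in each library (points, log axes) with the group mean (bars), for the 5 spacer groups and Control. At L150 the D100L150 and D150L150 libraries lie above those of D15L150 for Mmp8, Mmp9, Mmp10 and Mmp13 and below them for Adamts2.

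The summed markers of wound-edge keratinocytes showed the same split at L150. None of the 5 passed the test in D100L150 or D150L150 over D15L150. Among single genes the split was found for 3.6% of all those tested. The 5 markers, Krt6a, Krt6b, Krt16, Krt17 and Gjb2, summed to 6000 to 8838 FPKM in D100L150 and 6142 to 6454 in D150L150, against 2743 to 5369 in D15L150 and 786 to 1696 in Control. The lists did not always go together in libraries with high Mmp13. Control 1 had 64.0 FPKM of Mmp13, with 786 FPKM of wound-edge and 5991 FPKM of neutrophil markers. D150L150 3 had 47.0 FPKM of Mmp13, with 6382 FPKM of wound-edge and 1314 FPKM of neutrophil markers. In D15L200 3, where Mmp9, Mmp10 and Mmp13 were high, both lists were high, at 6525 and 8300 FPKM. The part of these markers in the Mmp values was not tested.

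**Figure D5:**
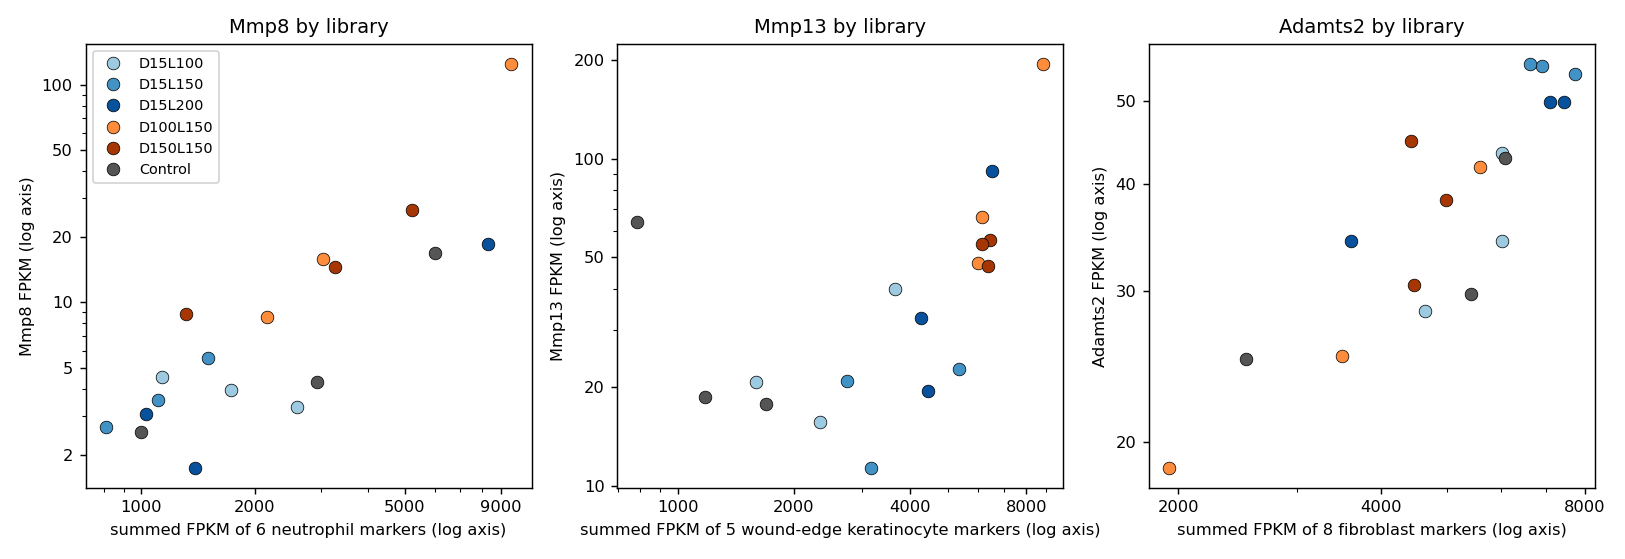
FPKM of Mmp8, Mmp13 and Adamts2 in each library against the summed FPKM of 6 neutrophil, 5 wound-edge keratinocyte and 8 fibroblast markers (log axes), coloured by group. Mmp8 is highest, at 124 FPKM, in the library with most neutrophil markers (9572 FPKM), Control 1 has 64.0 FPKM of Mmp13 with the fewest wound-edge markers (786 FPKM), D150L150 3 has 47.0 FPKM with 6382 FPKM of them, and the 3 D15L150 libraries have the highest Adamts2 values with 6635 to 7723 FPKM of fibroblast markers.

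Mmp2, gelatinase A, had a negative log2 change for D100L150 over D15L150. It had 177, 200.04 and 141 FPKM in D15L100, 224, 258 and 173 in D15L150, 217, 262 and 189 in D15L200, 52.2, 199 and 113 in D100L150, 148, 144 and 186 in D150L150, and 72.6, 156 and 215 in Control. D100L150 1 and Control 1 were the lowest libraries, which are those with the fewest fibroblast markers. The log2 change of Mmp2 for D100L150 over D15L150 was -1.02 ± 0.42, adjusted p = 0.42, and -0.52 without D100L150 1. Over Control the mean of the spacer groups gave 0.32 ± 0.32, adjusted p = 0.585, and -0.12 without Control 1. Of the other secreted MMPs, Mmp12, the elastase of macrophages, had 36.5, 80.9 and 47.2 FPKM in D15L100, 31.3, 15.6 and 27.6 in D15L150, 26.8, 53.4 and 34.3 in D15L200, 146, 35.8 and 32.4 in D100L150, 14.4, 35.4 and 20.1 in D150L150, and 31.2, 60.7 and 37.1 in Control. The D15L150 libraries lay below those of D15L100, against 6.74% of all genes. Its log2 change was 1.19 ± 0.53 for D100L150 over D15L150 (adjusted p = 0.43) and -1.31 ± 0.53 for D150L150 over D100L150 (adjusted p = 0.953). Without D100L150 1 these were 0.50 and -0.62. The 8 macrophage markers summed to 859 to 1131 FPKM in D100L150, 824 to 1189 in D150L150 and 875 to 1102 in D15L150. Mmp11, a stromelysin of stromal cells, ranged over 4.68 to 53.5 FPKM with no order by group, and shares its locus with Chchd10 on the other strand. Mmp19 ranged over 17.5 to 81.5 FPKM, Mmp23 over 5.70 to 24.0 FPKM and Mmp27 over 2.01 to 8.49 FPKM, and their log2 changes over Control were 0.26 ± 0.37, -0.10 ± 0.26 and 0.32 ± 0.22. Mmp7, known from glandular epithelia, was listed at 0 in most libraries and reached 0.0631 FPKM.

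Among Adamts genes, Adamts10, whose product binds fibrillin microfibrils, had the cleanest separation from Control (chromosome 17, 33523646 to 33553782). It had 6.84, 7.14 and 7.58 FPKM in D15L100, 7.98, 7.81 and 5.38 in D15L150, 6.55, 7.22 and 5.79 in D15L200, 3.33, 8.11 and 5.03 in D100L150, 5.53, 8.14 and 5.75 in D150L150, and 9.40, 8.86 and 8.64 in Control. All 15 spacer libraries, at 3.33 to 8.14 FPKM, lay below all 3 Control libraries, at 8.64 to 9.40 FPKM. No other of the 30 genes did so, against 0.719% of all tested genes. None of the 30 lay above Control in all 15, against 0.795%. The log2 change for the mean of the spacer groups was -0.43 ± 0.17 (95% confidence interval -0.79 to -0.07), adjusted p = 0.156 in limma. Over Control it was -0.28 ± 0.22 for D15L100, -0.32 ± 0.22 for D15L150, -0.41 ± 0.22 for D15L200, -0.69 ± 0.22 for D100L150 and -0.43 ± 0.22 for D150L150. Without Control 1 the mean log2 change was -0.40 (adjusted p = 0.493), and without D100L150 1, the lowest library, it was -0.37 (adjusted p = 0.133). Without D100L150 2 the D100L150 change was called, at -0.96 with adjusted p = 0.0322.

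Adamts2, a procollagen N-proteinase that trims fibrillar collagen precursors, was highest in D15L150 (chromosome 11, 50602085 to 50807573). It had 34.4, 43.5 and 28.4 FPKM in D15L100, 53.8, 55.0 and 55.3 in D15L150, 49.9, 49.9 and 34.3 in D15L200, 18.7, 42.0 and 25.2 in D100L150, 38.3, 30.5 and 44.9 in D150L150, and 25.0, 29.8 and 43.0 in Control. The 3 D15L150 libraries lay at 53.8 to 55.3 FPKM, above every other library of the series. The share of all genes with this pattern over every other group was not computed. By pair of groups, 3.34% of all genes lay above D15L100 without overlap and 12.4% above Control. The shares that lay below D15L150 without overlap were 3.77% in D15L200, 7.48% in D100L150 and 4.24% in D150L150. In limma the log2 change was -0.99 ± 0.27 (95% confidence interval -1.57 to -0.41) for D100L150 over D15L150 (adjusted p = 0.412) and -0.53 ± 0.27 for D150L150 over D15L150 (adjusted p = 0.89). D15L150 over Control gave 0.76 ± 0.27, adjusted p = 0.149. In the F test over D15L150, D100L150 and D150L150, Adamts2 and Mmp13 had the smallest p of the set, and limma's adjusted p = 0.743 for each. This F test had 6 of the 30 genes at an unadjusted p under 0.05, against 5.74% of all genes. The fibroblast markers summed to 1940 to 5586 FPKM in D100L150, 4426 to 4987 in D150L150 and 6635 to 7723 in D15L150. None of these markers passed the test in D100L150 or D150L150 over D15L150, and their part in the Adamts2 values was not tested. Adamts14, another procollagen N-proteinase, ranged over 4.40 to 11.8 FPKM with a log2 change over Control of 0.05 ± 0.25, and Adamts3 stayed at or under 0.643 FPKM.

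The proteoglycan-cleaving members gave a mixed picture. Adamts1, which cleaves versican, had 12.6, 26.4 and 21.7 FPKM in D15L100, 28.2, 20.1 and 17.6 in D15L150, 14.7, 19.6 and 24.0 in D15L200, 31.5, 19.2 and 23.1 in D100L150, 29.5, 32.5 and 19.9 in D150L150, and 16.2, 13.8 and 19.7 in Control. All D150L150 libraries lay above the highest Control library, D150L150 3 by little, against 14.3% of all genes, and the other groups overlapped Control. This gave a log2 change of 0.40 ± 0.22 for the mean of the spacer groups, adjusted p = 0.295, and 0.67 ± 0.28 for D150L150 over Control, adjusted p = 0.199. Adamts4, an aggrecanase induced by inflammatory cytokines, had 8.58, 9.77 and 12.3 FPKM in D15L100, 9.02, 8.68 and 7.25 in D15L150, 8.78, 9.04 and 19.5 in D15L200, 62.6, 8.56 and 13.1 in D100L150, 17.2, 25.3 and 7.24 in D150L150, and 33.1, 11.7 and 13.5 in Control. The library at 62.6 FPKM is D100L150 1 and the next is Control 1, and D15L150 was the group whose libraries all lay below Control. The log2 change was -0.47 ± 0.47, adjusted p = 0.585, and -0.02 without Control 1. Adamts9, a widely expressed versican-cleaving protease, had 1.97, 2.24 and 3.27 FPKM in D15L100, 2.53, 2.16 and 1.68 in D15L150, 2.07, 1.81 and 4.41 in D15L200, 8.0, 2.85 and 3.77 in D100L150, 4.54, 4.03 and 2.35 in D150L150, and 9.02, 3.15 and 4.03 in Control. Control 1 and D100L150 1 were again the highest. All D15L150 libraries lay below Control, as for Adamts4, against 14.0% of all genes. Its log2 change came to -0.59 ± 0.28, adjusted p = 0.238, and -0.21 without Control 1. Adamts5 ranged over 7.07 to 19.9 FPKM and Adamts15 over 2.08 to 15.5 FPKM, with log2 changes of 0.23 ± 0.25 and 0.48 ± 0.41. Control 1 was the lowest library for both.

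Adamts7 and Adamts12 are known to cleave cartilage oligomeric matrix protein. Adamts7 had 1.77, 1.33 and 2.01 FPKM in D15L100, 1.52, 1.54 and 0.613 in D15L150, 1.47, 1.03 and 3.05 in D15L200, 5.99, 2.40 and 2.09 in D100L150, 3.39, 2.58 and 1.38 in D150L150, and 6.10, 1.89 and 3.19 in Control. Its highest libraries were Control 1 and D100L150 1, and its D15L150 libraries lay below Control. In limma the log2 change was -0.58 ± 0.29, adjusted p = 0.26, and -0.24 without Control 1. Tbc1d2b overlaps the locus on the other strand and reached 22.8 FPKM. Adamts12 ranged over 2.07 to 7.47 FPKM, with a log2 change of -0.20 ± 0.21. For D15L150 over Control, Mmp28, Adamts2 and Timp2 lay above without overlap, against 12.4% of all genes. Mmp15, Adamts4, Adamts7, Adamts9 and Adamts10 lay below, against 14.0%. Adamts6 and Adamts8 were below the limit for testing. Adamts6, a microfibril-associated protease, had 0.542, 0.543 and 0.739 FPKM in D15L100, 0.572, 0.411 and 0.373 in D15L150, 0.457, 0.822 and 0.460 in D15L200, 0.548, 0.459 and 0.468 in D100L150, 0.719, 0.717 and 0.416 in D150L150, and 0.958, 0.772 and 0.722 in Control. Adamts8 had 0.184, 0.273 and 0.545 FPKM in D15L100, 0.201, 0.221 and 0.150 in D15L150, 0.362, 0.128 and 0.201 in D15L200, 0.0473, 0.114 and 0.143 in D100L150, 0.0763, 0.172 and 0.229 in D150L150, and 0.248, 0.235 and 0.259 in Control. For both genes D15L150, D100L150 and D150L150 lay below every Control library, against 14.0%, 10.8% and 12.1% of tested genes. With no filter on low values the log2 changes were -0.23 ± 0.08 (adjusted p = 0.198 in limma) for Adamts6 and -0.06 ± 0.07 (adjusted p = 0.775 in limma) for Adamts8. Adamts13, the protease of von Willebrand factor made mainly in liver, stayed at or under 0.0367 FPKM.

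No inhibitor passed the test in any of the 14 comparisons. Timp1, the inducible inhibitor, had 154, 165 and 163 FPKM in D15L100, 359, 91.0 and 121 in D15L150, 91.1, 155 and 219 in D15L200, 304, 119.7 and 219 in D100L150, 218, 279 and 74.6 in D150L150, and 356, 116 and 280.2 in Control. D15L100 was narrow, the other groups spanned wide ranges, and D15L150 1 and Control 1 were the highest libraries. All spacer groups overlapped Control. The log2 change for the mean of the spacer groups over Control was -0.45 ± 0.46 (95% confidence interval -1.44 to 0.53), adjusted p = 0.59. It was -0.12, -0.93 and -0.30 without Control 1, Control 2 and Control 3. Timp1 lies inside Syn1, which is on the other strand and stayed at or under 2.19 FPKM. Timp2, which with Mmp14 takes part in activating Mmp2, had 190.0, 164 and 139.9 FPKM in D15L100, 185, 231 and 176 in D15L150, 199.9, 228 and 134 in D15L200, 65.7, 192 and 122 in D100L150, 109.9, 149.7 and 199 in D150L150, and 92.9, 175 and 155 in Control. Its lowest libraries, D100L150 1 and Control 1, were those of Mmp2. The log2 change over Control was 0.22 ± 0.27, adjusted p = 0.661, and -0.05 without Control 1. For D100L150 over D15L150 it was -0.75 ± 0.35, adjusted p = 0.437, and -0.35 without D100L150 1. Timp3, which binds to the matrix and inhibits ADAMTS proteases as well as MMPs, had 35.9, 37.3 and 29.5 FPKM in D15L100, 36.7, 36.6 and 29.4 in D15L150, 33.5, 35.5 and 19.0 in D15L200, 19.3, 29.4 and 21.6 in D100L150, 20.1, 31.2 and 53.5 in D150L150, and 13.2, 33.0 and 31.0 in Control. Control 1 was the lowest library and D150L150 3 the highest. This gave a log2 change of 0.32 ± 0.28, adjusted p = 0.526, and -0.09 without Control 1. Timp4, below the limit for testing, had 0.665, 0.398 and 0.270 FPKM in D15L100, 0.266, 0.386 and 0.577 in D15L150, 0.548, 0.581 and 0.118 in D15L200, 0.0424, 0.131 and 0.576 in D100L150, 0.348, 0.0517 and 0.760 in D150L150, and 0.400, 0.533 and 0.581 in Control. With no filter on low values its log2 change was -0.14 ± 0.15 (adjusted p = 0.747 in limma).

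Summed over the families, Mmp transcripts came to 1.27 to 4.0 times the Timp transcripts per library. The ratio of the summed FPKM averaged 1.84 ± 0.37 in D15L100, 1.80 ± 0.46 in D15L150, 2.33 ± 0.42 in D15L200, 2.81 ± 1.19 in D100L150, 2.25 ± 0.38 in D150L150 and 1.65 ± 0.16 in Control (SD, n = 3 each). The highest ratio was that of D100L150 1, and the lowest that of D15L150 1, where Timp1 made up 61.8% of the Timp sum. The ratio compares RNA levels and carries no measure of enzyme activity. The Mmp sum itself was 665 ± 147 FPKM in D15L100, 719 ± 25.9 in D15L150, 863 ± 170 in D15L200, 1033 ± 486 in D100L150, 835 ± 9.62 in D150L150 and 682 ± 74.8 in Control. D150L150 had the tightest range, at 825 to 845 FPKM, above the 596 to 729 FPKM of Control, while D100L150 overlapped Control. D150L150 also stood apart from Control in skeletal muscle markers, at 1737 to 3442 FPKM against 6685 to 14816, and in the wound-edge markers given above. Their part in the sums was not tested.

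Genes around the pathway were counted from lists chosen by function. Of 12 activators and regulators of MMPs, 9 were tested, and in the mean comparison none rose and 1 fell, Serpine2, an inhibitor of thrombin and plasminogen activators. Serpine2 had 30.3, 22.2 and 32.8 FPKM in D15L100, 28.9, 26.3 and 16.3 in D15L150, 22.7, 20.8 and 28.0 in D15L200, 11.96, 18.7 and 24.5 in D100L150, 14.5, 17.9 and 15.5 in D150L150, and 76.9, 38.2 and 32.5 in Control. Its log2 change was -1.07 ± 0.24, adjusted p = 0.0288 in limma, and D15L100 3 alone of the spacer libraries exceeded the lowest Control library. The other 8, among them Plau, Plaur, Plat, Furin, Reck and Bsg, did not pass. Plau, the urokinase that starts plasmin formation, had a log2 change of -0.04 ± 0.14. None of 4 tested ADAMTS-like genes (of 7) and none of 9 tested Adam genes (of 11) passed in either direction. Adam17, the sheddase that releases tumour necrosis factor and growth factors of the EGF family, had a log2 change of 0.26 ± 0.12, adjusted p = 0.196.

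Among inducers of MMP genes, Tgfa, a ligand of the EGF receptor, rose in the mean comparison by 1.44 ± 0.31 on the log2 scale (adjusted p = 0.0241), 1 of 8 cytokines and growth factors tested. Tgfa had 1.68, 5.56 and 2.69 FPKM in D15L100, 4.13, 3.52 and 8.31 in D15L150, 5.39, 3.91 and 12.1 in D15L200, 18.1, 7.64 and 10.5 in D100L150, 13.6, 11.3 and 10.1 in D150L150, and 1.67, 1.87 and 2.05 in Control. All libraries of D15L150, D15L200, D100L150 and D150L150 lay above Control, and D15L100 overlapped it. The shares of all tested genes that lay above Control in these groups were 12.4%, 11.2%, 11.0% and 14.3%. In the same comparison all 5 wound-edge keratinocyte markers rose, by 1.57 to 2.40, and of the 6 basal keratinocyte markers Krt14 rose by 1.28, and their part in the Tgfa values was not tested. Il1b, Il1a, Tnf, Il6, Osm, Tgfb1 and Hbegf did not pass. Of 8 AP-1 subunits, all tested, Fosb rose by 2.09 ± 0.49 (adjusted p = 0.0338) and the other 7, Fos, Fosl1, Fosl2, Jun, Junb, Jund and Batf, did not pass. None of 20 tested collagen and matrix genes (of 21) passed in the mean comparison. In D100L150 over Control, Lama3 rose by 1.84 ± 0.38 (adjusted p = 0.0353). It encodes a laminin chain of the epidermal basement membrane. No gene was called in the mean comparison without Control 1, which covers Serpine2, Tgfa and Fosb. Serpine2, Tgfa and Fosb were also not called without Control 2, and Tgfa and Fosb not without Control 3. With voom on recovered fragments Tgfa and Fosb were not called, and with no filter on low values Serpine2, Tgfa and Fosb were not. Serpine2, Tgfa and Fosb were called in 16, 15 and 13 of the 18 fits that left out 1 library. Lama3 was called in 12 of 18, and its adjusted p was 0.109 without Control 1, 0.211 without D100L150 1 and 0.138 with only the groups compared.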

How the data were processed

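Gene expression was measured by RNA-seq in 18 skin flap libraries of 6 groups, with groups and replicate numbers taken from the sample titles. TRIzol RNA and a VAHTS Universal V6 kit were used, per the labels' protocols. The deposited values are FPKM, calculated by the authors. In the submitters' processing notes the tools fastp, HISAT2, HTSeq, R 3.2.0 and DESeq2 and the build mm10 appear with no role or order. The annotation and strand setting were not given in the sources used here. Since FPKM is scaled within a library, a difference in a few very abundant transcripts moves every other value of that library.

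The FPKM values divided into whole fragments, to within 0.0001 fragment, for 27743 of 27743 genes (100.0%), which gave the fragments per library. The 13078 genes that reached 1 FPKM in 3 or more libraries were tested as log2(FPKM + 1), and 14665 were left out. The program limma 3.58.1 in R 4.3.3 was fitted to all 18 libraries with 1 mean per group, a mean-variance trend and robust moderation. Benjamini-Hochberg adjustment was made over the tested genes of each of 14 comparisons, with calls at an adjusted p under 0.05. These were the mean of the 5 spacer groups and each spacer group over Control, 6 pairs of spacer groups, and an F test over each label series. The scripts were tested on simulated data. Alternatives were a pseudocount of 0.1, no filter, TPM and quantile scaling, a replicate block, only the groups compared, voom on recovered fragments, and leaving out each library. Leaving out D15L200 3, D100L150 1 and Control 1 together was chosen after seeing their neutrophil markers. Voom called 285 genes in the mean comparison, where the FPKM fit called 466.

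The genes and lists were chosen with earlier results of these data known. Given in full were, in the mean comparison, the 4 Mmp, 4 Adamts and 2 Timp genes with the smallest p, the 3 Mmp, 3 Adamts and all Timp genes with the highest mean FPKM, and genes whose libraries did not overlap Control in at least 3 spacer groups, on the same side. Mmp1b, Mmp8, Mmp9, Mmp10, Mmp12 and Mmp13 were chosen after their values were seen. Gene coordinates and promoters are from RefSeq, GRCm38.p6. Any 2 libraries of a group differed by a chi-square per gene of 47.9 to 279.7, far beyond sampling noise, so neither repeats the other's reads. All 18 were counted as separate samples. This measure cannot tell separate animals from separate preparations of the same animal. Values of some genes of the lists are not reported here.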

Additional observations from a re-analysis of the deposited data

How the results depend on the processing

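The 14 counts of called genes, all 0, were recomputed under 363 alternatives, of which 358 gave 0. With libraries left out in turn the count ranged over 0 to 1 in the mean of the spacer groups over Control and 0 to 1 in D100L150 over Control. Mmp15 was called without D15L100 1 or D15L200 3, Mmp17 without Control 2, and Adamts10 in D100L150 over Control without D100L150 2. With the replicate number as a block the mean comparison had 1 call, Mmp15 (log2 change -0.56, adjusted p = 0.0489). Over 45 pairs of libraries with the same number in different groups, 18 deviated together with r over 0.1 and 6 of 18 libraries correlated best with their own number, so the numbers were not taken as pairs.

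Of 660 recomputed changes of single genes, 639 kept direction and side of the threshold, 4 passed it and 17 turned sign. Many of these could not turn sign. The replicate block and dropping the filter leave the log2 change itself as it was. For a pair of groups, so does leaving out a library of another group or fitting only the groups compared. The share kept is therefore no measure of robustness. Mmp14 lay at 0.043 with TPM, 0.00222 with quantile scaling, 0.00867 with D15L200 3, D100L150 1 and Control 1 left out, and -0.050 to 0.039 with single libraries left out. With single libraries left out, Mmp2 ranged over -0.12 to 0.66, Mmp3 over -0.00211 to 0.92, Timp2 over -0.054 to 0.40 and Timp3 over -0.087 to 0.54, and Timp3 was -0.00706 with the 3 libraries left out. The turns came without Control 1 for Mmp2, Timp2 and Timp3 and without Control 2 for Mmp3, and their cause was not tested. For D100L150 over D15L150 the ranges were 1.41 to 3.26 for Mmp8, 1.05 to 2.10 for Mmp9, 1.46 to 2.92 for Mmp10 and 1.63 to 2.62 for Mmp13. Intervals and p-values rest on 3 libraries a group. Depth differed by at most 1.24 times between libraries. The filter was set on FPKM, and of the untested genes Timp4 had 4 fragments in D100L150 1.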
